A study of Homo sapiens with 18 samples.

Results

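The regions described here are stretches of chromatin in A549 cells that carried anti-ARID1A peaks in wild-type and in YTHDF1-knockout cells but had none once ARID1A was knocked down. They were found by merging the peaks of 6 anti-ARID1A lists on chromosomes 1 to 22 and X and keeping each merged region that overlapped a peak of both wild-type lists, of both knockout lists and of neither knockdown list. The rule kept 5731 regions of 153386 (3.74%), which together cover 19.3 Mb. They make up 15.6% of the 36764 regions held by all 4 wild-type and knockout lists. Of the others, 22598 were held by all 6 lists and 8435 by 1 of the 2 knockdown lists. The regions were thus chosen by the presence and absence of peaks in the 6 lists, so the anti-ARID1A values below describe them and carry no test.

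A549 is a human lung adenocarcinoma cell line. CUT&Tag was used, a method in which a transposase tethered to an antibody cuts and tags the DNA around the bound protein. The groups used here are wild-type cells (WT), cells with YTHDF1 knocked out (YTHDF1-KO) and cells given siRNA against ARID1A (siARID1A), each with 2 replicates for an ARID1A antibody and 2 for a YTHDF1 antibody. All were grown in the same medium. The labels do not say how many knockout clones or which siRNA sequences were used, nor whether the siARID1A cells were otherwise wild type. They also do not say whether replicates were separate cultures, so spreads and p-values refer to these libraries only and may be technical. IgG controls (6 samples) were not analysed here. No sample title names cells with knockout plus knockdown, and none were analysed.

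ARID1A is the large DNA-binding subunit of the canonical BAF complex, a SWI/SNF machine that uses ATP to slide or evict nucleosomes. In epithelial cells this complex is known to work at gene promoters and, to a large extent, at distal enhancers, where it acts together with transcription factors of the AP-1 and TEAD families. YTHDF1 binds RNA that carries N6-methyladenosine and is best known for promoting translation in the cytoplasm. A peak of an antibody marks where tagmentation was concentrated, and a missing peak says only that the caller listed none there.

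Promoter sequences of 6 genes are shown because they belong to strong or list-named lost regions. The promoters of the long non-coding RNA LOC124902270 (chr9:125538033-125538332, plus strand), of C10orf90 (chr10:126521392-126521691, minus strand) and of CLEC19A (chr16:19285481-19285780, plus strand) are those of the 3 regions of highest WT percentile that overlap a promoter. ADAMTSL2 (chr9:133534454-133534753, plus strand) lies in a region that all 6 anti-YTHDF1 lists held. IRF9 (chr14:24161015-24161314, plus strand) and SFTPA2 are genes of an interferon and a lung list, and SFTPA2 has a pair of promoters in its region (chr10:79560358-79560657 and chr10:79559822-79560121, minus strand). Each run is the RefSeq sequence on GRCh38.p14 from 250 bases before to 50 after an annotated start, written 5′ to 3′ on the gene's strand. Capitals mark letters that match any of the 8 motifs searched on either strand, and where capitals of different motifs touch they overlap.
LOC124902270: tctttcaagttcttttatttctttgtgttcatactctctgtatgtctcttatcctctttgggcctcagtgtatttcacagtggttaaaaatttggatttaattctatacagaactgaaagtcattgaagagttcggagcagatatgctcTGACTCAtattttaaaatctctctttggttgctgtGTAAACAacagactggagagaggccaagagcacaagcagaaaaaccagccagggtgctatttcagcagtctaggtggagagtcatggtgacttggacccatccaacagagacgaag
C10orf90: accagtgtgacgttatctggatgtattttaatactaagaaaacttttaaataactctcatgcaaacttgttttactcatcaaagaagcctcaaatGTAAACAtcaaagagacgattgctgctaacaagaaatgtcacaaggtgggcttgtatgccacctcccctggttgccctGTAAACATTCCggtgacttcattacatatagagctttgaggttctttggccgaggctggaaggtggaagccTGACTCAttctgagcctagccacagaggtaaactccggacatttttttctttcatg
CLEC19A: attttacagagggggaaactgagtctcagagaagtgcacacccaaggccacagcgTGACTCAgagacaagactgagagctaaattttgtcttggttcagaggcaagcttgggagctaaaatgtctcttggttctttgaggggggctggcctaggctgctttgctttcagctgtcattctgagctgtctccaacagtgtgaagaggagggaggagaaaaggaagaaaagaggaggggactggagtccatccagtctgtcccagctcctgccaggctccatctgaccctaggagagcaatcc
ADAMTSL2: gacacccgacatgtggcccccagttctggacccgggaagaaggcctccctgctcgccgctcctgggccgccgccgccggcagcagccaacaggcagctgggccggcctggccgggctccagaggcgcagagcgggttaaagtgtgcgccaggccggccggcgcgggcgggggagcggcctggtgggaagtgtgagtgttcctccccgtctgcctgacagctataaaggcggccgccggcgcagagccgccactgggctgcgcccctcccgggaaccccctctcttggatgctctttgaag
IRF9: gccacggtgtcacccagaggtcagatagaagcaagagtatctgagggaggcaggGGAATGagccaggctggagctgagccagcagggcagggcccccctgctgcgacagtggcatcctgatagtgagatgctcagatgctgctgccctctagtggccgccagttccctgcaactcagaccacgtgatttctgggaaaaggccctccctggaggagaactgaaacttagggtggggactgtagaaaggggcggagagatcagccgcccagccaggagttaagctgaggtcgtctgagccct
SFTPA2 first: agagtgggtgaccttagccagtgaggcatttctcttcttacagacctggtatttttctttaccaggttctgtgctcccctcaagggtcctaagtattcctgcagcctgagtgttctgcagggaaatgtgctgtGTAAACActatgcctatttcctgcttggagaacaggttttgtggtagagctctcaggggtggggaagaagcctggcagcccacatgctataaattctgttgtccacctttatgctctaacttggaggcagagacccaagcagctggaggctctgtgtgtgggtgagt
SFTPA2 second: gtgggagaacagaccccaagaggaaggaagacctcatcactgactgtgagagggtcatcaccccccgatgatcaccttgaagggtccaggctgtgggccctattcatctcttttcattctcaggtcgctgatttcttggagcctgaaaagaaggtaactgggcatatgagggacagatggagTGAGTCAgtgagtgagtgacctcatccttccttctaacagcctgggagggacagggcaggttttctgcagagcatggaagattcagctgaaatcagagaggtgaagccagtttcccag
The first 3 sequences and the second of SFTPA2 each hold the AP-1 letters TGACTCA or TGAGTCA. The first SFTPA2 promoter holds a forkhead match, the IRF9 promoter a TEAD match, and the CpG-rich ADAMTSL2 promoter no match. They are not a sample of all promoters in lost regions, of which 10.9% hold AP-1 letters and 47.7% are CpG-rich, with a CpG ratio over 0.6. A match describes the letters and is not evidence of binding.

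The knockdown lists were smaller than the rest as a whole, and this touches every count below. They held 71271 and 79193 peaks and covered 99.0 and 128 Mb, whereas the 4 WT and YTHDF1-KO lists held 92343 to 106882 peaks and covered 228 to 266 Mb. The signal columns are coverage on a scale set per library by the authors. Within each list every highest value is a whole multiple of a smallest step, so heights are given in steps and totals in steps times bases, which do not depend on that scale. Summed over its peaks, listed signal, in units of 1000000 step-bases, was 299 and 415 in siARID1A against 916 to 1233 in the other 4. These sums leave out the mitochondrial genome. Of the signal of all listed peaks, on any sequence, it took 49.5% and 44.9% in siARID1A, 19.3% and 18.1% in WT and 22.6% and 23.03% in YTHDF1-KO. Fewer ARID1A molecules per site, fewer cells or a poorer library cannot be told apart from these lists, and sequencing depth is unknown. With every list cut to its 71271 peaks of highest total signal, 2953 regions met the rule. With every list cut to the same covered length, chosen after seeing the data, 26 regions met it, and 10 of the 26 overlapped one of the 5731. This used 12.5% to 18.4% of the WT and YTHDF1-KO peaks, left 7750 regions in all 4 lists, and took the lost share of these to 0.335%. It kept 100% and 63.0% of the siARID1A peaks. Regions of high WT rank were seldom lost in the full lists either, with 2.79% in WT percentiles 80 to 90 and 0.169% in 90 to 100. A low count was thus built into this cut. The number of lost regions changes with how much of each list is used, and what sets it was not tested.

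The converse patterns were rare. Regions in both WT and both siARID1A lists that neither YTHDF1-KO list held numbered 223 of 23808 (0.937%). Those in both YTHDF1-KO and both siARID1A lists that neither WT list held numbered 170 of 23690 (0.718%). With lists cut to equal length these counts were 370 and 226 beside 2953, and at equal covered length 400 and 765 beside 26. The order of the 3 patterns thus turned over when covered length was equalised, a cut that kept only the strongest WT and YTHDF1-KO peaks.

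Within the full WT lists, the regions lost after knockdown were of middling rank. Ranked by total signal within each WT list, from 0 for the weakest to 100 for the strongest peak, they stood at medians of 48.6 and 54.1, and at 49.9 and 53.1 in the YTHDF1-KO lists. Averaged over both WT lists the median was 48.9, with 9 in 10 regions between 18.4 and 77.8 and the strongest at 95.4. Regions held by 1 of the 2 knockdown lists had a median of 59.0, and those held by both had 83.0. These medians move with list size: with lists cut to equal length the median was 60.004, and at equal covered length 89.6. The lowest total of any listed peak was 2173 to 2700 step-bases in the WT and YTHDF1-KO lists and 1382 and 1595 in the knockdown lists, so every WT and YTHDF1-KO peak lies above the knockdown floors by construction. The median total of the lost regions was 2.97 and 3.58 times the higher of these floors in WT and 2.74 and 2.58 times in YTHDF1-KO, counted in step-bases.

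The share of regions that was lost fell with WT strength. Of the 4-list regions in WT percentiles 0 to 10, 51.8% were missing from both knockdown lists. The share was 33.6% in percentiles 40 to 50, 17.9% in 60 to 70 and 0.169% in 90 to 100. Within a band of WT percentile the share also differed by position. Between percentiles 40 and 50, 15.2% of regions within 1 kb of a protein-coding gene start were lost, against 37.3% of regions farther away, and between 70 and 80 the shares were 1.92% and 12.01%. The plot of loss by percentile band shows this gap. For percentiles 40 to 60 together the losses were 12.9% (178 of 1381) near starts and 33.5% (1997 of 5957) away from them, a gap of 20.6 percentage points. With lists cut to equal length the gap was 21.1 points, and with bands drawn on highest rather than total signal 15.1. Leaving out each anti-ARID1A library in turn gave 21.9 to 24.1. With lists cut to equal covered length this band held no region, so the gap could not be checked there. In these lists, loss of anti-ARID1A peaks after knockdown was more frequent away from gene starts within these bands of WT percentile. Both the bands and the loss come from the lists that chose the regions, so this is a description only. These regions share libraries and are not independent, so no test is given.

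**Figure D1:**
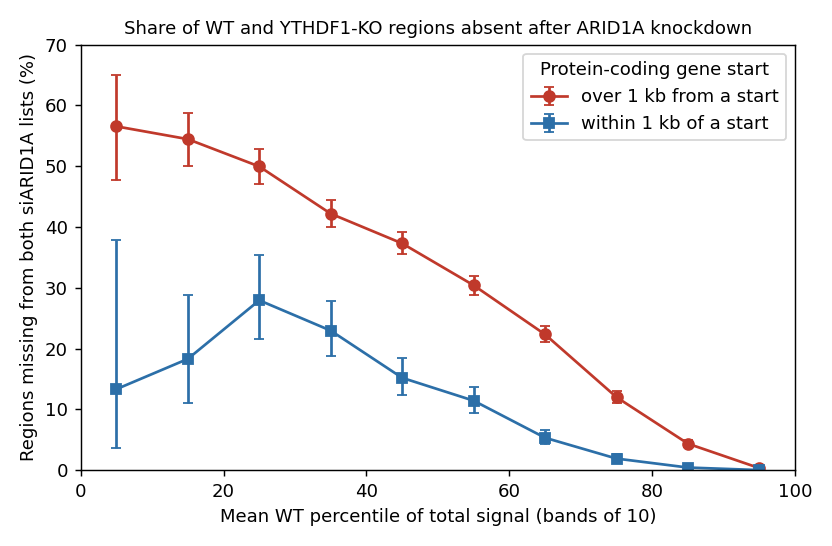
Share of regions held by both WT and both YTHDF1-KO lists that neither siARID1A list held (y axis, %), by mean WT percentile of total signal in bands of 10 (x axis), for regions within 1 kb of a protein-coding gene start (blue squares) and farther away (red circles). Bars are 95% Wilson intervals, which cover counting error only; in the band from 40 to 50 the shares are 15.2% and 37.3%.

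The strongest lost regions lay away from gene starts with few exceptions. First by WT rank was a region of 10910 bp in TACC2 (chr10:122177443-122188352), which encodes a centrosome-associated coiled-coil protein. It stood at percentiles 94.3 and 96.6 in WT and 81.7 and 90.6 in YTHDF1-KO, with a highest signal of 53 and 60 steps in WT and 15 and 30 in the knockout. The nearest knockdown peak was 3333 bp away. The second lay in TMC1 (chr9:72536106-72545759), which encodes a channel of sensory hair cells, at 93.7 and 94.4 in WT but 35.5 and 62.4 in YTHDF1-KO. The third lay in MAPKAP1 (chr9:125534623-125539520), a subunit of an mTOR complex, and overlaps the LOC124902270 promoter printed above. It stood at 93.5 and 94.2 in WT and at 67.4 and 67.7 in the knockout, and the nearest knockdown peak was 83914 bp away. These regions were picked for high WT values, so a lower value in the knockout follows in part from the choice and is read no further.

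A further region in PHLDB2 (chr3:111760582-111767014), a protein of the cell cortex, stood at 92.8 and 91.3 in WT and 94.3 and 84.2 in YTHDF1-KO, so the groups overlapped. One in CYFIP2 (chr5:157288864-157292089), part of the WAVE actin regulatory complex, stood at 91.7 and 91.8 in WT and 63.9 and 64.0 in the knockout. One in SPTBN1 (chr2:54481189-54487020), a spectrin, stood at 90.2 and 90.9 against 75.8 and 78.0. Of the 12 strongest, C10orf90 alone touched a protein-coding start (chr10:126518679-126523378, at 92.1 and 89.6 in WT and 58.1 and 77.9 in YTHDF1-KO). MEGF9 held another, at 91.1 and 89.4 against 48.8 and 69.5. The other 4 lay outside genes, at chr9:72439926-72447547, chr2:113649992-113654259, chr9:126544697-126552267 and chr1:53411663-53415909. Of these 12 regions 5 were on chromosome 9 and 2 on chromosome 2, which are taken up below.

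Typical members looked different. The 3 just above and the 3 just below the median WT percentile included a region at an end of NPIPB13 on chromosome 16, a gene of unknown strand here with near-identical copies, so that its assignment is uncertain, and others in LINC02275, FAM169BP and the immunoglobulin lambda locus. Their WT values could differ widely between replicates: a region at chr6:33511771-33514924 stood at 21.5 in WT replicate 1 and 76.3 in replicate 2. Over all 5731 regions the Pearson correlation of percentiles was 0.395 between the WT replicates and 0.334 between the YTHDF1-KO replicates, so the rank of a single region is known only loosely.

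Over all WT ranks together, the lost regions were also narrower than those that knockdown lists held. Their median width was 2981 bp, with the middle 50% between 2214 and 4181 bp and a range of 973 to 13972 bp. Regions held by 1 knockdown list had a median of 3754 bp and those held by both 5676 bp. Within WT percentiles 40 to 50 the direction differed by place. Away from gene starts the medians were 2846.5 bp for lost regions and 3663 bp for regions of all 6 lists. Within 1 kb of a start they were 3216 and 2758 bp. A wider region also has more room to overlap a knockdown peak, so width is not independent of the rule. All merged regions had a median of 1761 bp and regions that both WT lists alone held 1914 bp, so the lost regions were wider than these. In each of the 4 lists, 85.8% to 88.8% of the lost regions consisted of 1 peak, with a median of 1594 to 1845 bp covered. Heights had medians of 7 and 8 steps in WT and 7 and 6 in YTHDF1-KO, against 15, 17, 13 and 12 in regions of all 6 lists. Over all merged regions that a list held, these medians were 7, 7, 6 and 6. The place of highest signal differed by a median of 204 bp between the WT replicates, 259 bp between the YTHDF1-KO replicates and 218 bp between the mean place in WT and that in YTHDF1-KO, where averaging reduces the spread.

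**Figure D2:**
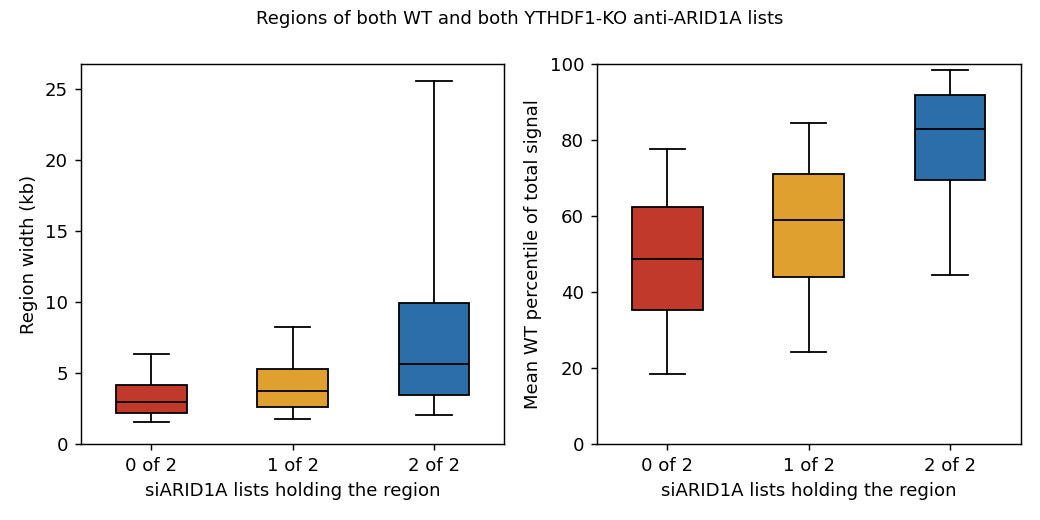
Width (left, kb) and mean WT percentile of total signal (right) of the regions held by both WT and both YTHDF1-KO lists, by the number of siARID1A lists that held them. Boxes span the middle 50%, lines mark medians and whiskers reach from the 5th to the 95th percentile; median width rises from 2981 bp with no siARID1A list to 5676 bp with both.

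The widest members were unlike the rest in size. The widest, 13972 bp at chr22:26606247-26620218, spans CRYBA4 and CRYBB1, neighbouring genes of lens crystallins, at WT percentiles 73.0 and 82.7. The next, 13951 bp at chr16:4912539-4926489, lies in PPL, which encodes the desmosome-linked protein periplakin, at 77.2 and 95.3. Next in width were regions of 12598 bp on chromosome 8 and 12442 bp on chromosome 12, both outside genes. In the CRYBA4 and chromosome 12 regions the highest signal in WT was only 6 to 9 steps.

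Most lost regions had a knockdown peak in the same neighbourhood. The median distance to the nearest siARID1A peak was 4296 bp, and 3111 regions (54.3%) had one within 5 kb. Just inside the rule, 43 regions had a knockdown peak within 100 bp. Just outside it, 6 regions of the 4 lists were held by a knockdown list whose peaks covered under 5% of the region, and for 2534 the cover was under 20%. When a peak had to cover 20% of a region to hold it, 7701 regions met the rule. At the other extreme 1681 regions (29.3%) had no knockdown peak within 10 kb and 402 (7.01%) none within 50 kb. These isolated regions were not weaker in WT, with median percentiles of 49.8 and 50.6, but they were narrower, at 2558 and 2210.5 bp.

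**Figure D3:**
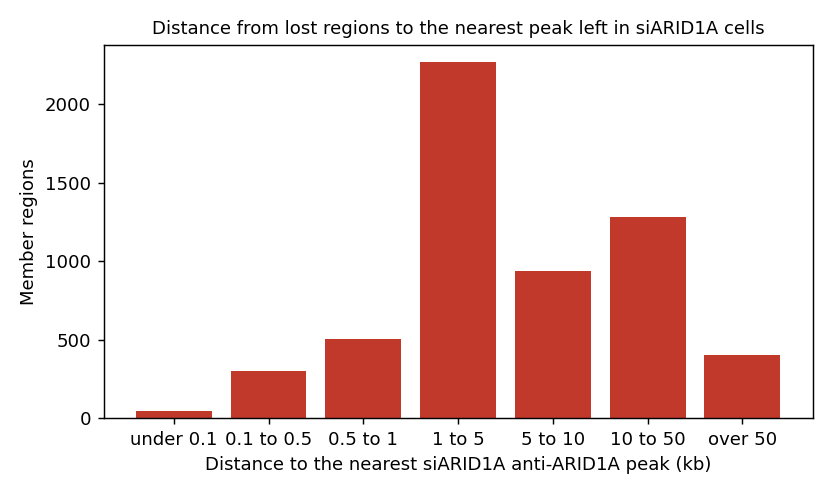
Number of lost regions (y axis) by distance from the region's edge to the nearest anti-ARID1A peak of either siARID1A list (x axis, kb, bins of unequal width). The bin from 1 to 5 kb holds 2265 regions and the bin beyond 50 kb holds 402.

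Most lost regions had no lost neighbour. Along each chromosome, 3717 of the regions (64.9%) had no other lost region beside them in the order of 4-list regions, and 670 pairs and 148 triples of neighbours were lost together. Only 15.6% of all 4-list regions were lost, so this share does not show that the lost regions were scattered. Whether they lie together was not tested. The longest runs held 7. A run of 7 filled 158 kb of COL5A1 (chr9:134657517-134815644), which encodes a fibrillar collagen chain, where the WT lists had 39 peaks and the knockdown lists 5. Another run of 7 covered SHANK2, a postsynaptic scaffold gene, and its flank (chr11:70441158-70786810), with 51 WT and 12 knockdown peaks. Further stretches contained no knockdown peak at all. A run of 6 over SETBP1 and SLC14A2 (chr18:43892329-45618007) had 22 WT peaks, and a run of 6 over CEACAM20 (chr19:44523283-44554750), a carcinoembryonic antigen family gene, had 15.

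By place, the lost regions were chiefly distal, much as all merged regions were. Of the 5731, 438 (7.64%, 95% Wilson interval 6.98 to 8.36) lay within 1 kb of a protein-coding gene start, or of either end where the reference gave no strand. A further 2737 (47.8%) lay in a protein-coding gene away from its start, 785 (13.7%) in another gene and 1771 (30.9%) outside genes. Regions of all 6 lists lay at starts in 44.7% and outside genes in 14.6%. Of all merged regions 11.0% lay at starts, 46.5% in a protein-coding gene away from its start and 29.3% outside genes. Regions that both WT lists alone held lay at starts in 2.95%. The median distance to an annotated start was 21.7 kb for the lost regions and 4.54 kb for regions of all 6 lists, chromosome 8 aside, for which the promoter table has no entries. It was 21.2 kb for all merged regions and 25.3 kb for those that both WT lists alone held. Set against all 4-list regions of the same place, 3.70% of those at starts were lost, 20.8% of those inside protein-coding genes, 17.03% in other genes and 24.8% outside genes. With lists cut to equal covered length 3.85% of the 26 regions touched a start.

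Few genes lost their start peak. Of 19974 protein-coding genes 457 (2.29%) had a lost region within 1 kb of a start, and 340 of these had no other start region held by all 6 lists. A lost region lay in the span of 2394 genes (12%). Of these, 561 had 2 or more and 33 had 5 or more. PDE4D, which encodes a cAMP phosphodiesterase, held the most, with 12 of its 48 regions lost. PTK2, the focal adhesion kinase gene, lost 9 of 18. MACROD2 and the sortilin-family receptor gene SORCS2 lost 8 each, of 19 and 15. Those with 7 were ANK1, an ankyrin gene (of 15), the fibrillar collagen genes COL27A1 (of 14) and COL5A1 (of 10), and SHANK2 (of 13). These are long genes, from 158 to 2058 kb. Per length, the densest among genes with at least 3 were LHX6, a LIM homeobox gene with 3 of 4 regions lost, BPIFB4 with 3 of 3, PARVG, a parvin of focal adhesions, with 3 of 5, the leukocyte integrin gene ITGAL with 4 of 8, and SRCAP, a chromatin remodeller, with 3 of 5.

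Among 16 gene lists, the starts that were lost included those of SFTPA2, RNASEH2B, WNT2B and IRF9. SFTPA2, a surfactant protein gene of alveolar cells (chr10:79555909-79560919), stood at 19.9 and 63.8 in WT and 62.1 and 46.4 in the knockout, and its near-identical neighbour SFTPA1 makes the assignment uncertain. RNASEH2B, a subunit of the ribonuclease that cuts RNA in RNA:DNA hybrids (chr13:50908593-50911510), was weak, at 14.5 and 33.7 against 25.7 and 37.1. In neither did the WT values lie apart from those of the knockout. WNT2B, a WNT ligand (chr1:112464221-112466924), stood at 33.8 and 28.4 against 38.0 and 61.1, both knockout values being higher, and another start of this gene lay in a region of all 6 lists.

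IRF9, the DNA-binding subunit of the interferon-activated complex ISGF3, was the strongest of these 4 in WT. Its region of 8489 bp (chr14:24157718-24166206), which also reaches RNF31, stood at 67.0 and 79.2 in WT and 87.3 and 78.9 in YTHDF1-KO, so the groups overlapped. A knockdown peak lay 68 bp from its edge, and all 6 anti-YTHDF1 lists held the region. Among 37 genes of nucleic acid sensing and interferon response, IRF9 was the sole one with a lost region at a start or in its span (2.70%, against 2.29% of all protein-coding genes for starts). A start lay in a region of all 6 lists for 20 of the 37, and for 11894 of all 19974 genes.

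Within gene bodies, loss was spread over the lists. Summed over all protein-coding genes, 10.9% of the 4-list regions in gene spans were lost (3277 of 29927). In this sum a region in overlapping genes counts once for each gene, so it is not a count of separate regions. Of the regions in 29 integrin and laminin genes, whose products attach cells to the extracellular matrix, 16 of 93 (17.2%) were lost, with 4 in ITGB5 and 3 in ITGB3. For the 28 SWI/SNF subunits the count was 12 of 78 (15.4%), including 3 of 4 regions in DPF3 and 2 of 7 in ARID1B, the paralogue of ARID1A. The YAP and TEAD pathway lost 10 of 75 (13.3%), with 2 in TEAD1. The WNT list lost 14 of 106 (13.2%), 3 of them in TCF7L2, and the TGF-beta and BMP list 9 of 86 (10.5%). The NRF2 targets and aldo-keto reductases, which KEAP1-mutant A549 cells are known to express highly, lost 3 of 67 (4.48%), and 27 of the 28 genes had a start in a region of all 6 lists, against 11894 of 19974 over all genes. Nucleic acid sensing and interferon genes lost 1 of 31 (3.23%). Lists differ in gene length and in how many of their regions lie at starts, so these shares describe the lists and set none apart. In the ARID1A gene itself 1 of 3 regions was lost, and in YTHDF1 0 of 1. Hairpins of 21 microRNAs lay in lost regions, of 595 in 4-list regions and 1558 tabled. Of all 4-list regions 5731 of 36764 (15.6%) were lost, though this counts regions and not hairpins.

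Gene-start peaks are no check of cell identity, since they do not give expression. In both WT lists 11 of 12 lung epithelial markers had a start peak, AGER being the exception, but so did 6 of 7 neuronal, 4 of 8 haematopoietic and 4 of 6 fibroblast markers, and 70.2% of all protein-coding genes. The blood genes PTPRC, CD3E, GATA1 and HBB had none.

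The promoters inside lost regions differed in base composition from those of kept regions. Of 34789 promoters of 300 bases, 478 overlapped a lost region, 1554 a region of 1 knockdown list and 16200 a region of all 6 lists. Median GC content was 58.5% in the lost, 61.7% in the intermediate and 65.3% in the kept promoters, against 58.7% over all. The CpG ratio, the number of CpG pairs over that expected from the base content, had medians of 0.557, 0.728 and 0.797, against 0.578 over all. The IRF9 promoter (0.265) and those of C10orf90 (0.384), LOC124902270 (0.162) and CLEC19A (0.0507) printed above are CpG-poor. A promoter in a lost region thus resembled the average promoter, while promoters in kept regions were richer in CpG.

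AP-1 letters were more frequent, and the GC box less frequent, in lost than in kept promoters, with no test made. The AP-1 letters TGANTCA, searched on both strands, were present in 10.9% of promoters in lost regions (52 of 478), in 7.79% of the intermediate, 5.59% of the kept and 7.69% of all promoters. The GC box GGGGCGGGG, recognised by SP and KLF factors, went the other way, at 13.6%, 17.9%, 25.1% and 15.7%. Among CpG-poor promoters, with a ratio up to 0.6, AP-1 letters were found in 18% of those in lost regions (45 of 250), 12.2% of those in kept regions and 12.1% of all. Among promoters over that ratio the shares were 3.07%, 3.12% and 3.06%. The TEAD letters GGAATG were present in 14.2%, 12.5%, 11.5% and 14.1% of the 4 sets. TGACGTCA, the element of CREB and ATF factors, was present in 1.05%, 2.25%, 2.60% and 1.84%, and the NRF2 element TGACNNNGC in 10.3%, 13.5%, 15.0% and 13.4%. The forkhead letters TGTTTAC gave 2.93%, 3.15%, 2.31% and 3.42%, CCAAT 31.2%, 30.7%, 33.3% and 34.6%, and the ETS letters CCGGAAG 14.0%, 14.1%, 14.7% and 10.2%. AP-1 and NRF2 matches shared letters in 197 of all promoters. Promoters of the same gene can overlap, and most lost regions contain no promoter, so these shares speak for 478 promoters only.

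In YTHDF1-KO cells the percentiles of the lost regions were centred near those in WT but spread widely, in lists whose peaks the rule required. The median difference in percentile, YTHDF1-KO minus WT, was 0.511, with 9 in 10 regions between -33.4 and 32.6. Both knockout percentiles exceeded both WT percentiles in 1157 regions (20.2%, against 23% of all 4-list regions), and the reverse held in 1113 (19.4%, against 20.4%). The shares are thus at or below those of the background. The correlation of mean WT with mean knockout percentile was 0.391 over the 5731 regions. It uses means of 2 libraries and cannot be set against the values between single replicates given above.

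Chromosome 2 and distal parts of chromosomes 9 and 17 stood apart in the shift of percentiles between YTHDF1-KO and WT. Chromosomes 2, 9 and 17 did so less clearly in the share lost. Of the 4-list regions 10.9% were lost on chromosome 2, 20.1% on chromosome 9 and 11.0% on chromosome 17, against 16.1% on the rest together. Single chromosomes of the rest ranged from 12.5% (chromosome 19) to 18.7% (chromosome 18). The Wilson interval of chromosome 19 overlapped those of chromosomes 2 and 17, and that of chromosome 18 the interval of chromosome 9. Lost regions on chromosome 2 stood lower in YTHDF1-KO than in WT, with a median difference of -9.79 percentiles, and those on chromosome 9 beyond 80 Mb with one of -16.2. On chromosome 17 beyond 40 Mb they stood 13.6 higher, and on the other chromosomes together 1.54 higher. Regions of all 6 lists shifted the same way, by -6.51, -6.34 and 5.07. For the lost regions of chromosome 17 as a whole the median difference was 5.26, and for those up to 40 Mb it was -1.49. Single chromosomes other than 2, 9 and 17 ranged from -2.91 (chromosome 18) to 4.45 (chromosome 15). On distal chromosome 9 the regions of all 6 lists also stood lower in siARID1A than in WT, by a median difference of -18.5, against -6.03 on chromosomes other than 2, 9 and 17. Whether these shifts, which run over whole chromosome parts, bear on the lost regions of chromosome 9 such as those in TMC1, MAPKAP1 and COL5A1 was not tested. Without the 3 chromosomes 4848 regions remained.

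**Figure D4:**
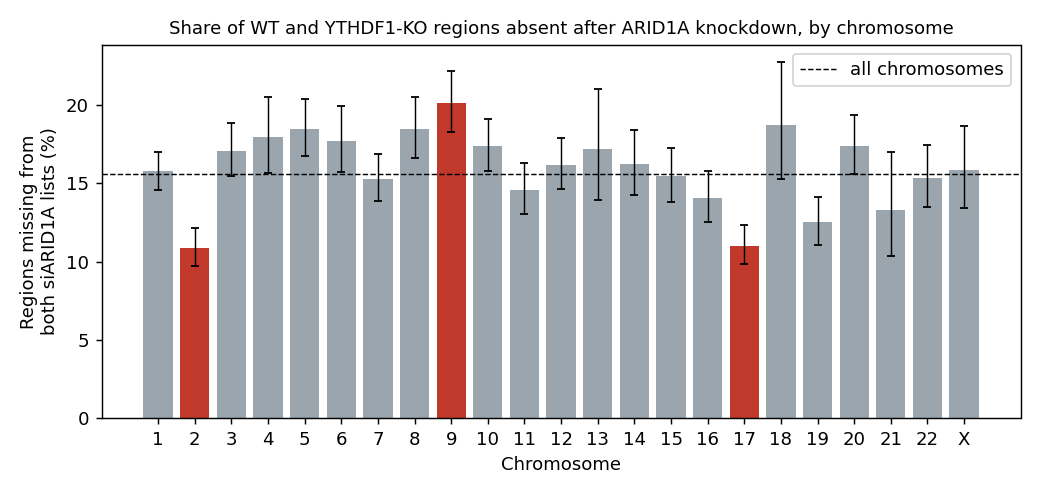
Share of the regions held by both WT and both YTHDF1-KO lists that neither siARID1A list held (y axis, %), by chromosome, with 95% Wilson intervals for counting error. The dashed line marks 15.6%, the share over all chromosomes; chromosomes 2, 9 and 17 are in red, at 10.9%, 20.1% and 11.0%.

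The anti-YTHDF1 lists, which the rule did not use, held the lost regions about as often as they held all merged regions. In YTHDF1-KO cells these lists still had 50774 and 46225 peaks, against 57764 and 40562 in WT. An overlap with an anti-YTHDF1 peak is therefore not read here as YTHDF1 binding, and what the antibody marked was not tested. An anti-YTHDF1 peak overlapped 22.5% and 13.0% of the lost regions in the WT lists, 17.2% and 15.6% in YTHDF1-KO and 18.8% and 19.1% in siARID1A. The means were 17.7% ± 6.70, 16.4% ± 1.11 and 18.9% ± 0.234 (SD, n = 2 each). The WT replicates differed by more than any of the means. The siARID1A mean was 1.204 percentage points above WT, and the YTHDF1-KO mean lay below it (-1.32), with an exact two-sided permutation p of 1 for either. Of siARID1A against YTHDF1-KO the difference was 2.52 points, with both siARID1A libraries above both knockout ones and an exact permutation p of 0.33, the smallest that 2 against 2 allow; adjusted by Benjamini-Hochberg over the 3 pairs of conditions it is 1. This design cannot show whether anti-YTHDF1 peaks were lost or kept in these regions. Both differences from WT changed sign when 1 of the WT libraries was left out: without WT replicate 2 the siARID1A difference was -3.53, and without WT replicate 1 the YTHDF1-KO difference was 3.42. With the anti-YTHDF1 lists cut to equal length the siARID1A difference was -1.77, with both siARID1A libraries below both WT ones and an exact permutation p of 0.33.

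For all merged regions the means were 16.4% in WT, 15.3% in YTHDF1-KO and 18.7% in siARID1A, whereas regions of all 6 anti-ARID1A lists were held in 58.8%, 52.7% and 65.7%. No anti-YTHDF1 list held 2547 of the lost regions (44.4%, against 9.32% of regions of all 6 lists), and all 6 held 36 (0.628%, against 26.4%). The pattern of the anti-ARID1A loss was not common among anti-YTHDF1 peaks. Only 98 lost regions (1.71%, against 0.889% of all merged regions) were held by both WT and neither siARID1A anti-YTHDF1 list, and 126 (2.20%, against 1.59%) showed the reverse. Both WT and neither YTHDF1-KO list held 124 (2.16%, against 1.39%), and 100 (1.74%, against 0.996%) showed the reverse.

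Among 4-list regions, loss of the anti-ARID1A peak fell with the number of anti-YTHDF1 lists, those of YTHDF1-KO cells included, that held the region. It was 36.4% with none, 24.2% with 1, 9.68% with 3 and 0.581% with all 6. Within WT percentiles 40 to 60 the shares were 41.7%, 31.6%, 20.3% and 7.55%, so the gradient was present within this band too. The gradient was not split by place. Loss in the same band was 12.9% near gene starts and 33.5% away from them, so the 2 differences cannot be told apart here. The loss with no anti-YTHDF1 list exceeded that with 3 or more by 25.2 percentage points in this band, by 26.4 with anti-ARID1A lists cut to equal length and by 35.1 with bands drawn on highest signal. Leaving out each anti-ARID1A library gave 23.6 to 30.9. At equal covered length of the anti-ARID1A lists the band held no region, so this gap too could not be checked.

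**Figure D5:**
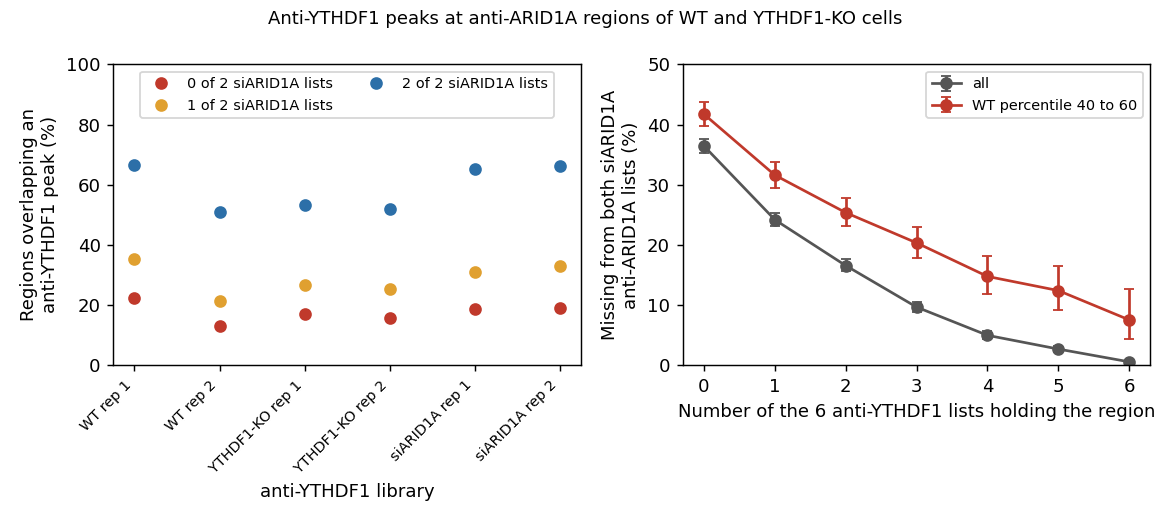
Left, share of anti-ARID1A regions of both WT and both YTHDF1-KO lists that overlap a peak of each anti-YTHDF1 library (y axis, %), by the number of siARID1A anti-ARID1A lists that held them; the lost regions (red) lie between 13.0% and 22.5% in every library. Right, share of regions missing from both siARID1A anti-ARID1A lists (y axis, %) by the number of anti-YTHDF1 lists holding the region (x axis), over all regions and within WT percentiles 40 to 60, with 95% Wilson intervals for counting error.

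Among the 36 regions that all 6 anti-YTHDF1 lists held, the strongest in WT lay outside genes at chr9:126544697-126552267, one of the 12 above. The next was at the start of ADAMTSL2, which encodes a secreted matrix glycoprotein (chr9:133532002-133542944), at 77.2 and 90.5 in WT and 70.4 and 54.5 in YTHDF1-KO. Others lay in PRKCZ, an atypical protein kinase C gene (chr1:2106655-2112379), at 76.4 and 83.0 against 38.2 and 65.6, and over GNB1L and RTL10 (chr22:19840581-19847637), at 73.2 and 82.8 against 80.1 and 88.3. In the first 2 of these 3 both WT values exceeded both knockout values. CACNA1I, a calcium channel gene (chr22:39686730-39692598), GFOD2 (chr16:67672106-67676845) and a region with the microRNA gene MIR5692B (chr21:42949447-42955265) followed, together with IRF9. All but the PRKCZ and chromosome 21 regions had a siARID1A anti-ARID1A peak within 5156 bp, the nearest at 374 bp in CACNA1I aside from the 68 bp of IRF9.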

How the data were processed

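CUT&Tag peak lists of 6 anti-ARID1A and 6 anti-YTHDF1 libraries were used, grouped by the sample titles. The submitters' processing notes name SEACR 1.3 for peaks, Bowtie2 2.4.2, deepTools 3.5.2, SAMtools 1.9, fastp 0.23.2 and bedtools 2.30.0, and the builds GRCh38 and hg38. Their settings, and whether IgG entered peak calling, were not given in the sources used here. Deposited lists, called per sample, give each peak's total and highest signal, coverage that the authors scaled per library. The signal was used only to rank peaks within a list, as percentiles, or in steps. All highest values (100%) were whole steps, with a tolerance of 0.01 step or 0.01%.

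Peaks were merged with Python 3.11.15, numpy 2.4.6 and pandas 2.3.3. A list held a region if a peak overlapped it by 1 bp or more. Percentiles are of the strongest overlapping peak. Genes, promoters and sequences came from RefSeq tables of GRCh38.p14. Strand was known for 15812 of 19974 protein-coding genes, and either end was used for the other 4162. Coordinates are 1-based. The steps were tested on simulated data. The members, the 16 gene lists and the 8 motifs were chosen with earlier results of these data known. Regions named were the 12 strongest and 5 widest members, 3 to either side of the median, promoter members and those of all 6 anti-YTHDF1 lists, the last at most 8. Genes named were the 8 with most members, the 5 densest and list genes with a member at a start. Some items that these rules name are not reported here. List genes named by their gene bodies, and the 4 longest runs, were chosen after their values were seen. Shares over 2 against 2 libraries were compared by exact two-sided permutation tests.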

Additional observations from a re-analysis of the deposited data

Results flagged for a closer look

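The mitochondrial genome, which the comparisons above do not use, took 47.2% of the anti-ARID1A signal of all listed peaks in the siARID1A lists (mean of 2), above the 18.7% in WT. It drew attention because the signal lies outside the chromosomes compared and exceeds the WT level in both siARID1A libraries (49.5% and 44.9%). Its part in the lost regions was not tested.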

How the results depend on the processing

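The number of regions, 5731, was 2953 with lists cut to equal length, 3567 with the upper 50% of each list and 26 at equal covered length. The last, the bands on highest signal and the repeats of the loss gaps were added after the data were seen. The count depends on how much of each list is used. Leaving out a library gave 7893 to 11230, since fewer lists are then required, the highest without siARID1A replicate 2. In the order equal length, upper 50%, 20% cover and equal covered length, the median WT percentile was 60.004, 72.1, 55.4 and 89.6, and the median width 3260, 4124, 3643 and 5826.5 bp (3689 with peaks within 1 kb merged). Leaving out a library gave 44.7 to 54.2 and 2547 to 3277 bp. The share at starts was 12.8% for the upper 50%, 10.8% for 20% cover, 3.85% at equal covered length, 12.8% with 3 kb and 28.0% with 10 kb windows, and 6.86% to 11.5% without a library. Distance to a knockdown peak was 8651, 2031 and 7542 bp for the upper 50%, 20% cover and merging within 1 kb, and 3817 to 6667.5 bp without a library. The gap by place was 15.1 points on highest signal, 21.9 to 24.1 without a library, and that by anti-YTHDF1 lists 35.1 and 23.6 to 30.9. Neither gap could be computed at equal covered length. The siARID1A minus WT difference in anti-YTHDF1 peaks reversed to -1.77 at equal length of those lists and to -1.92 at equal covered length, and ranged from -3.53 to 5.94 without a library. YTHDF1-KO minus WT ranged from -6.05 to 3.42, and was -15.4 over the 26 regions at equal covered length (exact p of 0.33). The cause of these reversals was not tested. With the replicate number as a block the differences were 1.204 and -1.32, with an exact p of 1 each. The labels do not say that numbers pair libraries, and over the regions the replicate differences of the conditions correlated by -0.0229 to 0.0106. Unknown depth and 2 libraries per group limit all values.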
